A study of Mus musculus with 12 samples.

Results

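Cd14, Ly96, Myd88, Ticam1, Ticam2, Irak2, Irak3, Irak4, Nod1 and Nod2 were followed in mouse macrophages as the co-receptors of lipopolysaccharide (LPS) sensing, the adaptors and IRAK family members behind Toll-like receptors (TLRs), and the cytosolic NOD receptors. They were chosen by name: the rows of the deposited table whose Ensembl identifier maps to these symbols, 10 of 55891 identifiers. All 10 were found and all 10 passed the filter on low counts, with between 30 and 7430 estimated counts in each library. Bone marrow was cultured 6 days in 10 ng/mL M-CSF, under which its precursors become macrophages. It came from Ptprz1 knockout (KO) or wild-type (WT) mice. Ptprz1 encodes a receptor-type protein tyrosine phosphatase. Cells of each genotype were left as control, given 100 ng/mL LPS with 10 ng/mL IFNγ for 24 h (M1 in the labels), or given 20 ng/mL IL-4 for 24 h (M2 in the labels). RNA sequencing gave 2 libraries for each of the 6 groups, 12 in all. Titles of WT samples begin with B6, while the strain label names the targeted strain B6.129-Ptprz1tm1Nmo for every sample, WT included. Nothing in the sources used here gives the animals' age or number, or ties the 2 libraries of a group to separate animals or cultures. The p-values below therefore reflect the spread of these samples alone, and that spread may be technical.

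LPS, the outer membrane lipid of Gram-negative bacteria, is passed by CD14 to a complex of TLR4 and MD-2, the product of Ly96. From the cell surface TLR4 signals through MyD88, which assembles IRAK4 with IRAK1 or IRAK2 and leads to NF-κB and MAP kinases. From endosomes it signals through TRAM (Ticam2) and TRIF (Ticam1) to IRF3 and type I interferon. IRAK-M (Irak3) is best known in macrophages as a brake on the MyD88 branch. NOD1 and NOD2 detect fragments of peptidoglycan in the cytosol and signal through the kinase RIPK2.

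Total counts ran from 13665607 to 19555600 per library, and levels are given as CPM, the usual count scaled to library size, here with TMM-adjusted sizes. Ptprz1 itself had 0 counts in 11 libraries and 7 counts in WT IL-4 library 2, so the data cannot check the knockout (a count of 0 allows up to 3 counts, or 0.153 to 0.220 CPM by total counts). The macrophage markers, 10 of 10 detected in each group, summed to between 9603 and 21025 CPM. Of other cell types, stromal markers summed to between 60.9 and 1340.4 CPM, granulocyte markers to between 12.5 and 502, and erythroid and megakaryocyte markers to between 18.2 and 93.6. T and NK cell, B cell, dendritic cell, and mast cell and basophil markers summed to at most 1.51, 4.98, 5.04 and 0.954 CPM. Xist was present in the 6 WT libraries alone and 4 Y-linked transcripts in the 6 KO libraries alone, so sex and genotype cannot be told apart. The treatments showed in their marker lists: the LPS+IFNγ response genes summed to between 6745 and 8859 CPM in LPS+IFNγ libraries and to at most 24.0 CPM elsewhere. The IL-4 response genes summed to between 1917 and 2484 CPM in IL-4 libraries and to at most 567 CPM elsewhere. Libraries of a KO group differed more from each other, with a chi-square per gene of 48.4 to 54.9, than libraries of a WT group, with 7.10 to 15.6. The labels name no sequencing batch.

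All 10 genes are protein coding, and Cd14 and Ticam2 are placed where their values are given. In GENCODE M21 on GRCm38, Ly96 lies on chromosome 1, Irak2 and Nod1 on chromosome 6, Nod2 on chromosome 8, Myd88 on chromosome 9, Irak3 on chromosome 10, Irak4 on chromosome 15 and Ticam1 on chromosome 17. The authors' notes name GRCm39, so these positions serve only to place the genes and their promoters. RefSeq promoter windows on GRCm38.p6, from 250 bases before to 50 bases after a start, were at hand for 9 starts of 7 genes. Cd14, Ly96 and Ticam2 had no entry. Below are 150 bases upstream of 5 starts, none with a GENCODE exon base: the 3 genes with the largest response to LPS+IFNγ (Nod1, Nod2, Irak3), Myd88, and Irak4, which did not pass the test. All read 5′ to 3′ on the gene's strand, and capitals mark a match, on either strand, to GGGNNNNNCC (NF-κB pattern), GAAANNGAAA (interferon response pattern) or TTCNNNGAA (STAT pattern).
Nod1, chr6:54972613-54972762, minus strand: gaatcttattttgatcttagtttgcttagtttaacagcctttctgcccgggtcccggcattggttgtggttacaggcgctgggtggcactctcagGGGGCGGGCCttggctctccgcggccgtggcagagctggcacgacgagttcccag
Nod2, chr8:88647165-88647314, plus strand: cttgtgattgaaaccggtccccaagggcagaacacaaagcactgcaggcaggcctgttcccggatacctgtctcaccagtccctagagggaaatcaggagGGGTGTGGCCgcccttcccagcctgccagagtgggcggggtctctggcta
Irak3, chr10:120202131-120202280, minus strand: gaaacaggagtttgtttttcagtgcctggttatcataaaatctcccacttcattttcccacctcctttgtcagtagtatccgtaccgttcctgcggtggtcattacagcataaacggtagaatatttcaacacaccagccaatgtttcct
Myd88, chr9:119340042-119340191, minus strand: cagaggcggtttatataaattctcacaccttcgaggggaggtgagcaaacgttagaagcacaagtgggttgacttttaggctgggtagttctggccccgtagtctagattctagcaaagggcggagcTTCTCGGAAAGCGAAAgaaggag
Irak4, chr15:94543493-94543642, plus strand: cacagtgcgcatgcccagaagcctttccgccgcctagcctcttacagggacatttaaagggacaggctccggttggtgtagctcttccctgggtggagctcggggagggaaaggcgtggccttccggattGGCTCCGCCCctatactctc

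The Myd88 window held the interferon response pattern as GAAAGCGAAA at −40 to −31 and the STAT pattern as TTCTCGGAA at −46 to −38 from the RefSeq start, sharing 3 bases. In the same 250 bases before the start of 32851 RefSeq promoters, 2.98% held the first and 7.02% the second. No other window of these genes held GAAANNGAAA, and a further Nod1 start held TTCCAGGAA at −193 to −185. GGGNNNNNCC matched in Nod1 at −55 to −46, in Nod2 at −82 to −73 and in Irak4 at −37 to −28. It also matched in Ticam1 and at an internal start of Irak3, where both strands matched in overlapping positions, and 45.8% of all promoters held it. The IL-4 linked pattern TTCNNNNGAA (STAT6), held by 5.85% of promoters, matched in none of the 9. So the pattern most often matched was present both in strongly responding Nod1 and Nod2 and in nearly flat Irak4. A match is a description of letters, not of binding.

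Of the LPS co-receptors, Cd14 moved in opposite directions with the 2 stimuli in WT cells, and Ly96 rose with LPS+IFNγ. Cd14 (chromosome 18), which binds LPS and hands it on, stood in WT libraries 1 and 2 at 250.2 and 229 CPM in control, 474 and 440.3 with LPS+IFNγ, and 46.6 and 44.6 with IL-4. In KO libraries it stood at 342 and 267, 443 and 378, and 53.2 and 71.8 CPM. The IL-4 libraries were the lowest of each genotype and the LPS+IFNγ libraries the highest, with no overlap. Cd14 rose with LPS+IFNγ in WT cells (log2 fold change 0.93 ± 0.17 SE, adjusted p = 0.00122, edgeR's quasi-likelihood test, Benjamini-Hochberg over 13525 genes). In KO cells the change of 0.43 ± 0.17 did not pass (adjusted p = 0.0545). DESeq2 called it (0.0324), as did the fit without KO control library 1 (0.62, adjusted p = 0.0250) or without KO LPS+IFNγ library 2 (0.54, 0.04996). With total counts in place of TMM sizes the value was 0.43 in WT (adjusted p = 0.0567) and −0.06 in KO (0.773). Cd14 fell with IL-4 by 2.39 ± 0.18 on the log2 scale in WT (5.25-fold lower, adjusted p = 0.000216) and changed by −2.28 ± 0.18 in KO (4.87-fold lower, adjusted p = 0.000335), the largest fall of the 10 genes in both genotypes. Fitted on its own 4 libraries the KO fall had an adjusted p of 0.0515.

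Ly96, the LPS-binding partner of TLR4, was found at 7.39 and 8.28 CPM in WT control, 23.6 and 23.2 with LPS+IFNγ, and 7.03 and 7.51 with IL-4. In KO it was at 6.91 and 8.48, 21.2 and 22.3, and 8.47 and 10.3 CPM. Only the LPS+IFNγ libraries stood apart within each genotype. It rose 2.99-fold in WT (1.58 ± 0.16, adjusted p = 2.65e-05) and 2.82-fold in KO (1.497 ± 0.16, 4.09e-05). With IL-4 the log2 fold change was −0.11 ± 0.16 in WT and 0.29 ± 0.16 in KO, neither past the threshold. TLR4 mRNA, in comparison, did not pass with LPS+IFNγ (Tlr4, −0.05 ± 0.23 in WT and −0.35 ± 0.23 in KO) and was at 71.8 CPM in KO LPS+IFNγ library 2 against 121 to 125 in the other 3 LPS+IFNγ libraries.

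**Figure D1:**
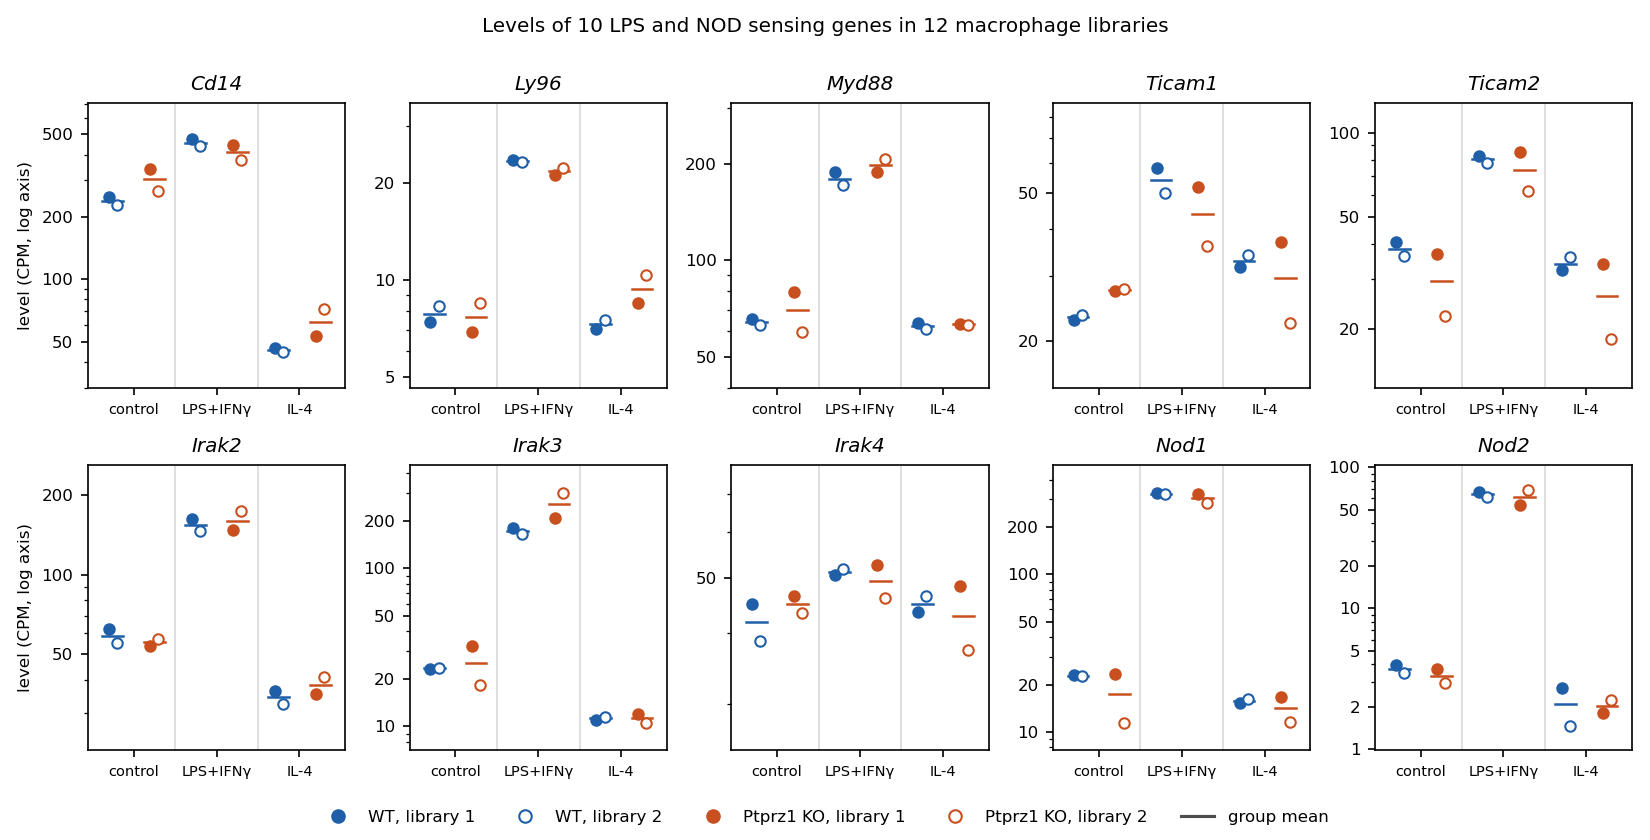
Level of each gene in CPM (log axis) in the 12 libraries, filled circles for library 1 and open circles for library 2, blue for WT and orange for Ptprz1 KO, with the group mean as a line. Nod1 ran from 11.5 to 23.5 CPM in control and from 284 to 331 with LPS+IFNγ, Cd14 was lowest with IL-4 (44.6 to 71.8), and Irak4 stayed between 37.3 and 52.5.

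Of the adaptors, Myd88, shared by most TLRs and the IL-1 receptor family, was at 65.4 and 62.7 CPM in WT control, 188 and 172 with LPS+IFNγ, and 63.7 and 61.1 with IL-4. KO libraries held 79.7 and 59.7, 189 and 207, and 63.1 and 63.0 CPM. Myd88 rose 2.81-fold in WT (1.49 ± 0.14, adjusted p = 1.57e-05) and 2.84-fold in KO (1.51 ± 0.14, 1.57e-05) with LPS+IFNγ. Its IL-4 libraries overlapped or lay close to control, at −0.04 ± 0.13 in WT and −0.15 ± 0.13 in KO. Its exons share 290 bases with Acaa1a on the opposite strand, and the strand setting of the counting is not given in the sources used here.

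Ticam1, the adaptor TRIF used by TLR3 and endosomal TLR4, was at 22.8 and 23.5 CPM in WT control, 58.1 and 50.01 with LPS+IFNγ, and 31.7 and 34.0 with IL-4. The KO libraries were at 27.4 and 27.7, 51.7 and 36.0, and 36.8 and 22.4 CPM, the last pair enclosing the control pair. Ticam1 rose with LPS+IFNγ, by 1.22 ± 0.23 in WT (adjusted p = 0.00154) and by 0.68 ± 0.23 in KO (0.0316). The KO call was lost without KO control library 1 (0.0994), KO control library 2 (0.0911) or KO LPS+IFNγ library 1 (0.236), on its own libraries (0.0669) and with total-count scaling (0.19, 0.523). With IL-4 it was the one gene whose WT libraries all lay above control, at 0.50 ± 0.23, which did not pass (adjusted p = 0.206) except on the 4 WT libraries alone (0.00882).

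Ticam2 (chromosome 18), the bridge TRAM between TLR4 and TRIF, was at 40.7 and 36.3 CPM in WT control, 82.5 and 78.0 with LPS+IFNγ, and 32.2 and 35.9 with IL-4. KO libraries held 36.9 and 22.1, 85.1 and 61.8, and 34.0 and 18.4 CPM, library 2 being the lower in each treatment. It rose with LPS+IFNγ by 1.06 ± 0.30 in WT (adjusted p = 0.0141) and 1.32 ± 0.30 in KO (0.00504). The WT call was lost without WT control library 2 (0.0808) or WT LPS+IFNγ library 1 (0.0601), and with total counts as sizes (0.56, 0.139). IL-4 gave −0.17 ± 0.30 in WT and −0.18 ± 0.30 in KO, neither past the threshold. Ticam2 shares 838 exon bases with Tmed7 on the same strand. Tmed7 held 1999 to 4086 counts per library against 388 to 1261 for Ticam2, so how reads were split between them makes the Ticam2 level uncertain.

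Of the IRAK genes, Irak2 and Irak3 rose with LPS+IFNγ and fell with IL-4 in both genotypes, and Irak4 passed in neither. Irak4, the kinase that MyD88 recruits first, was nearly flat: 44.9 and 38.7 CPM in WT control, 50.5 and 51.8 with LPS+IFNγ, 43.5 and 46.5 with IL-4, and in KO 46.4 and 43.3, 52.5 and 46.1, and 48.4 and 37.3. With LPS+IFNγ its change was 0.29 ± 0.14 (adjusted p = 0.104) in WT and 0.14 ± 0.14 (0.439) in KO on the log2 scale, values that turned to −0.21 (0.258) and −0.36 (0.0654) with total counts as sizes. Irak4 shares 395 exon bases with Twf1 on the opposite strand.

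Irak2, a later member of the same complex, was at 62.1 and 55.3 CPM in WT control, 162 and 147 with LPS+IFNγ, and 36.4 and 32.5 with IL-4. KO libraries held 53.9 and 57.4, 147 and 174, and 35.3 and 41.1 CPM. The 3 treatments did not overlap in either genotype. It rose 2.63-fold in WT (1.40 ± 0.13, adjusted p = 1.72e-05) and 2.88-fold in KO (1.53 ± 0.13, 1.099e-05) with LPS+IFNγ, and fell 1.70-fold (−0.77 ± 0.13, 0.00836) and 1.46-fold (−0.54 ± 0.13, 0.0380) with IL-4. The WT fall was not called without WT control library 1 (0.0910) or WT IL-4 library 2 (0.0801). The KO fall was not called without any 1 of its 4 libraries (0.0596 to 0.107) or on those libraries alone (0.207).

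Irak3, the inhibitory member, showed the widest range of the 3. WT libraries were at 23.1 and 23.5 CPM in control, 179.6 and 164 with LPS+IFNγ, and 11.05 and 11.4 with IL-4. KO libraries were at 32.1 and 18.2, 208 and 302, and 12.02 and 10.6 CPM. Irak3 rose 7.38-fold in WT (2.88 ± 0.26, adjusted p = 1.45e-05) and 10.1-fold in KO (3.34 ± 0.26, 7.16e-06). With IL-4 it fell 2.07-fold in WT (−1.05 ± 0.26, 0.0355) and 2.23-fold in KO (−1.16 ± 0.26, 0.0301). Leaving out any 1 of the 4 WT libraries ended the WT call (0.147 to 0.173), and leaving out KO control library 1 (0.142), KO IL-4 library 1 (0.0600) or KO IL-4 library 2 (0.156) ended the KO call, as did the 4 KO libraries alone (0.209). Without KO control library 1 the KO value was −0.69. Irak3 shares 192 exon bases with Tmbim4 on the opposite strand.

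The NOD receptors had the largest responses to LPS+IFNγ. Nod1, the sensor of peptidoglycan fragments found mostly in Gram-negative bacteria, was at 23.0 and 22.7 CPM in WT control, 331 and 322 with LPS+IFNγ, and 15.2 and 16.1 with IL-4. KO libraries held 23.5 and 11.5, 326 and 284, and 16.6 and 11.6 CPM. It rose 14.3-fold in WT (3.84 ± 0.30, adjusted p = 6.25e-06) and 17.4-fold in KO (4.12 ± 0.30, 5.04e-06). IL-4 gave −0.54 ± 0.28 in WT (0.268) and −0.31 ± 0.28 in KO (0.554). Only 2 fits called it, the WT libraries alone (−0.52, 0.0129) and the fit without KO control library 2 (−0.77, 0.0429), and without KO control library 1 the KO value was 0.30.

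Nod2, the sensor of muramyl dipeptide, was the scarcest of the 10 genes outside LPS+IFNγ: 3.94 and 3.45 CPM in WT control, 66.2 and 61.9 with LPS+IFNγ, and 2.73 and 1.47 with IL-4. In KO libraries it was at 3.69 and 2.97, 54.2 and 69.2, and 1.80 and 2.23 CPM. It rose 17.3-fold in WT (4.11 ± 0.25, adjusted p = 1.71e-06) and 18.5-fold in KO (4.21 ± 0.26, 1.84e-06). With IL-4 its libraries lay below control in both genotypes, at −0.82 ± 0.27 in WT (0.0920) and −0.72 ± 0.27 in KO (0.146). The WT value was called without the low-count filter (0.0306) and by DESeq2 (0.0479).

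Counted together, 9 of the 10 genes rose with LPS+IFNγ in WT cells, all but Irak4, where 27.4% of all genes tested were called higher. In KO cells 8 rose, all but Cd14 and Irak4, against 27.2% of all genes. Libraries of the 2 WT groups did not overlap, with LPS+IFNγ higher, for 10 of 10 genes against 40.7% of all genes, and in KO for 9 of 10 (Irak4 overlapped) against 37%. The median log2 fold change of the 10 was 1.44 in WT and 1.502 in KO, beside −0.05 and −0.01 for all genes tested. These counts depend on scaling. TMM factors were 0.756 to 0.833 in LPS+IFNγ libraries and 1.09 to 1.16 elsewhere, and with total counts as sizes the median of all genes moved to −0.55 in WT and −0.51 in KO. Calls over all genes then went from 3700 higher and 3648 lower to 2048 and 6170 in WT, and from 3676 and 3527 to 1990 and 6049 in KO. Of the 10 genes 7 stayed called in each genotype, without Cd14, Ticam2 and Irak4 in WT and without Cd14, Ticam1 and Irak4 in KO.

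With IL-4, Cd14, Irak2 and Irak3 fell in both genotypes, 3 of 10 against 4.12% of all genes called lower in WT and 3.34% in KO, and no gene of the 10 rose. WT libraries lay wholly below control for 6 genes (Cd14, Ticam2, Irak2, Irak3, Nod1 and Nod2) against 33.3% of all genes, and KO libraries for 4 (Cd14, Irak2, Irak3 and Nod2) against 23.6%. The median of the 10 was −0.36 in WT and −0.24 in KO. Total counts as sizes left the same 3 genes called in both genotypes, while calls over all genes in WT went from 665 higher and 557 lower to 519 and 669. Both stimuli were compared with the same control libraries. Irak2 and Irak3 thus changed in opposite directions with the 2 stimuli in both genotypes, and Cd14 did so in WT alone by these calls.

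**Figure D2:**
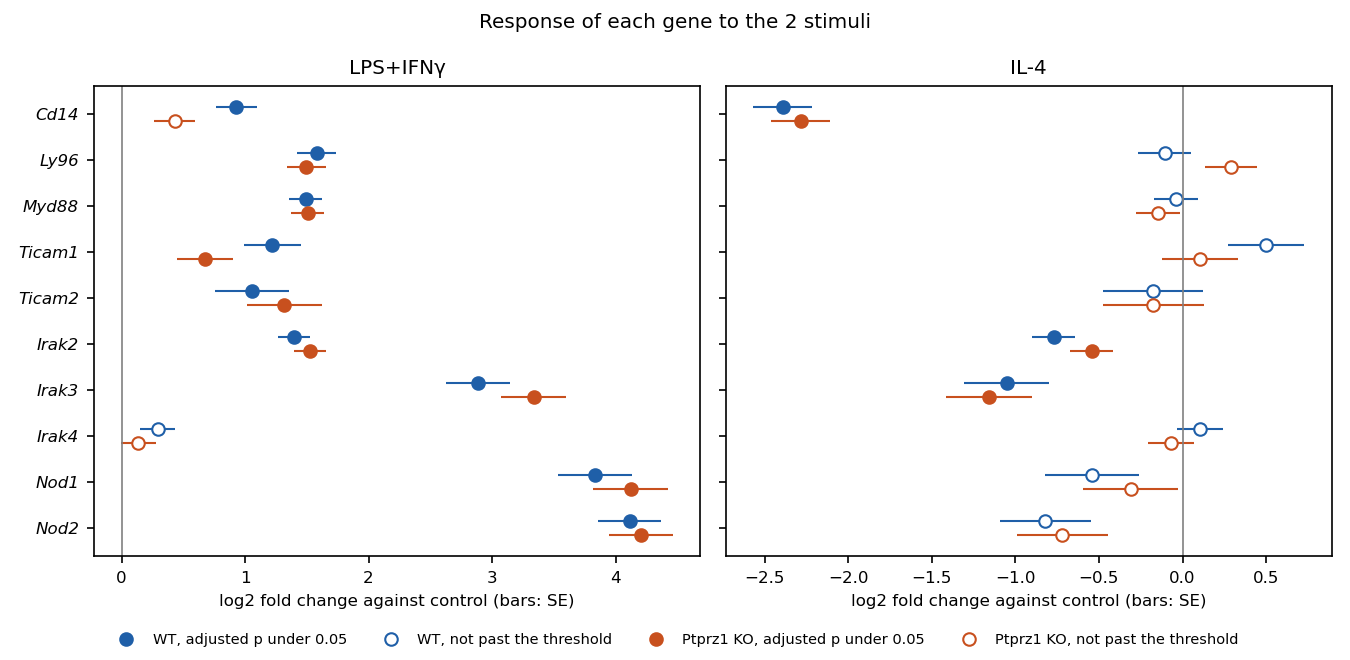
Log2 fold change against control of each gene with LPS+IFNγ (left) and IL-4 (right), WT in blue and Ptprz1 KO in orange, bars giving the SE and filled points an adjusted p under 0.05. With LPS+IFNγ the values run from 0.14 for Irak4 in KO to 4.21 for Nod2 in KO, and with total-count scaling Irak4 in both genotypes and Cd14 in KO turn negative. With IL-4 the filled points are Cd14, Irak2 and Irak3, all below 0.

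KO and WT macrophages were compared under each treatment. Sex differed along with genotype, so the values cannot be assigned to loss of Ptprz1. Stromal marker sums were also higher in KO than in WT under each treatment, with no overlap of libraries. In control the gap was small, with at most 341 CPM in WT and at least 348 in KO. Col1a1, Col1a2 and Col3a1 made up most of the sum, and not every marker followed it. Pecam1 with IL-4 was at 10.4 and 8.89 CPM in WT and at 7.65 and 1.47 in KO. The part of the stromal markers in the genotype differences was not tested. None of the 10 was called in control (0.0739% of all genes were), with LPS+IFNγ (0.0591%), with IL-4 (0.0665%) or in the mean over treatments (0.17%), by edgeR or by DESeq2. At an unadjusted p under 0.05 there were 0 of 10 in control (7.48% of all genes), 1 with LPS+IFNγ (8.27%), 2 with IL-4 (3.35%) and 0 in the mean (11.3%). The 1 gene was Irak3, at 208 and 302 CPM in KO and 179.6 and 164 in WT LPS+IFNγ libraries, a log2 difference of 0.57 (95% confidence interval 0.03 to 1.103, adjusted p = 0.599). The 2 with IL-4 were Cd14 (0.45, interval 0.07 to 0.84) and Ly96 (0.37, 0.02 to 0.72), both with an adjusted p of 0.98. Libraries of the genotypes did not overlap for Cd14 and Ticam1 (both higher in KO) in control, 2 of 10 against 44.2% of all genes. With LPS+IFNγ this held for Ly96 (lower in KO), Myd88 and Irak3 (higher), 3 of 10 against 39.1%, and with IL-4 for Cd14 and Ly96 (higher), 2 of 10 against 30.8%.

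The widest intervals in control were those of Ticam2 (−0.38, −1.06 to 0.29) and Nod1 (−0.38, −1.01 to 0.24), and the narrowest that of Irak2 (−0.08, −0.36 to 0.21). Over the 3 treatments together the mean difference of Myd88 was 0.09 (−0.08 to 0.26), of Irak2 0.04 (−0.12 to 0.21) and of Irak4 −0.01 (−0.19 to 0.17). Cd14 had 0.21 in the mean, with an unadjusted p of 0.0539. The difference of the LPS+IFNγ response between genotypes passed for 0 of 10 genes (0% of all genes), with 0 at an unadjusted p under 0.05 (3.52% of all genes). It was −0.50 for Cd14 (−1.03 to 0.03), −0.54 for Ticam1 (−1.27 to 0.18) and 0.45 for Irak3 (−0.32 to 1.23), so the calls of Cd14 in WT and not in KO do not show a difference between the genotypes. The difference of the IL-4 response likewise passed for 0 (0% of all genes, 4.47% at an unadjusted p under 0.05, with 0 of the 10 among them). Its values ran from −0.40 for Ticam1 (−1.12 to 0.33) to 0.40 for Ly96 (−0.10 to 0.90). DESeq2 called none of the 10 in either interaction.

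**Figure D3:**
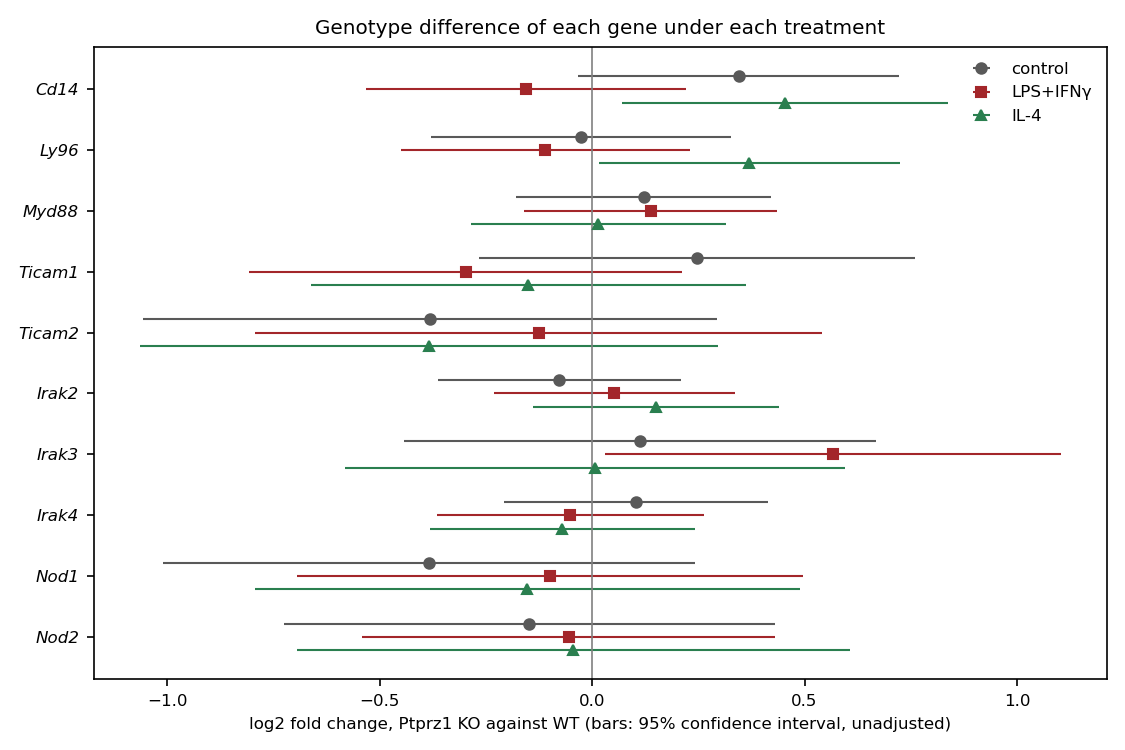
Log2 difference of Ptprz1 KO against WT for each gene in control (grey circles), LPS+IFNγ (red squares) and IL-4 (green triangles), with unadjusted 95% confidence intervals. Only Irak3 with LPS+IFNγ (0.57, 0.03 to 1.103) and Cd14 and Ly96 with IL-4 have intervals that leave out 0, and none passes after adjustment over all genes.

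The spread between the libraries of a group set these limits. The higher library exceeded the lower by a median factor of 1.07 over 30 pairs (10 genes in 3 groups) in WT and 1.24 in KO, with maxima of 1.86 (Nod2, IL-4) and 2.05 (Nod1, control). In KO, Ticam2, Irak4 and Nod1 were lower in library 2 than in library 1 under all 3 treatments, and Ly96 and Irak2 were higher. In WT, Cd14, Myd88, Irak2 and Nod2 were lower in library 2 under all 3. The share of all genes with such a constant direction was not counted. Differences between library 2 and library 1 correlated over all genes tested between the groups of a genotype (lowest 0.195). The constant directions therefore cannot be read as particular to these 10 genes. Stromal cell markers, 8 or 9 of 9 detected in each group, had a higher sum in library 2 than in library 1 in all 6 groups. Col1a1, Col1a2 and Col3a1 made up most of the sum, and not every marker followed it. Pecam1 was lower in library 2 in all 6 groups, and Cdh5 in KO under all 3 treatments. In WT the stromal markers summed to 64.6 and 341 CPM in control, 67.8 and 192 with LPS+IFNγ, and 60.9 and 205 with IL-4. In KO they summed to 348 and 834, 288 and 689, and 339 and 1340.4 CPM. Their part in the values of the 10 genes was not tested, and in bulk RNA fewer cells of a type and less RNA per cell cannot be told apart. KO control library 1, with the highest Cd14, Myd88 and Irak3 of the 4 control libraries, also had the most Ifit1 (14.7 CPM against 1.08 to 1.75) and Irf7 (48.8 against 6.53 to 7.59), both induced by interferon. That part was not tested either.

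The KO LPS+IFNγ library 2, in which Irak3 reached 302 CPM, stood apart in other genes. It held 421 CPM of Il12b and 255 CPM of Tnf, which were at 62.1 and 124 in KO library 1 and at 117 to 124 and 129 to 147 in WT. The granulocyte list, 7 of 10 detected in that group, summed to 502 CPM against 266 in KO library 1 and 197 to 214 in WT. It consisted mainly of S100a8 (220.3 CPM) and Csf3r (281). S100a9 had 0 counts in it, as in library 2 of the other 2 KO groups, and Ly6g had 0 counts in all 12 libraries. The part of these markers in the Irak3 level was not tested. Without this library the Irak3 difference was 0.27, with an adjusted p of 1. No other library had more Irak3 than 208 CPM.

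Levels were compared between genes per kilobase of exon. In WT control Cd14 led with 138 CPM per kb, followed by Myd88 with 24.9 and Irak2 with 13.3. Irak4 (8.32), Ticam1 (7.75) and Ly96 (7.67) came next with overlapping libraries, then Ticam2 (6.65) and Irak3 (6.34), also overlapping, Nod1 (4.49) and Nod2 (0.736). With LPS+IFNγ the order changed below the first 2 genes. Cd14 (264) and Myd88 (69.9) were followed by Nod1 (64.3), Irak3 (46.8), Irak2 (35.1), Ly96 (23.0), Ticam1 (18.1), Ticam2 (13.9), Nod2 (12.8) and Irak4 (10.2), each pair of neighbours apart. Nod1 thus went from rank 9 to rank 3 and Irak4 from 4 to 10. With IL-4 the lead of Cd14 (26.4) over Myd88 (24.2) was small though the libraries did not overlap, and Ticam1 (10.97) and Irak4 (8.95) came ahead of Irak2 (7.81). Dividing by the longest transcript put Nod1 (75.6) above Myd88 (73.3), Ticam2 above Ticam1, and Irak4 (14.9) above Nod2 (13.6) with LPS+IFNγ. In KO the first 3 ranks in control were the same genes, and with LPS+IFNγ the libraries of Irak3 (69.4) overlapped those of Myd88 (77.0) and of Nod1 (60.0), which did not overlap each other.

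**Figure D4:**
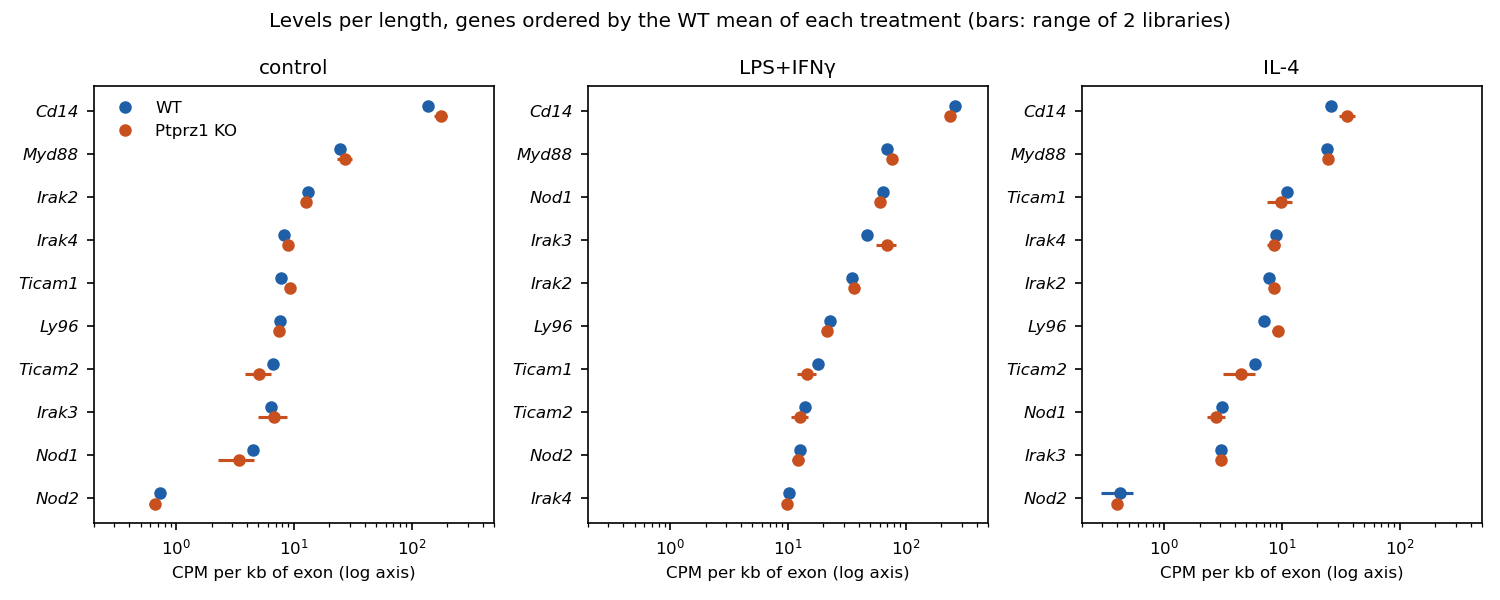
Mean level per kilobase of exon (log axis) under each treatment, WT in blue and Ptprz1 KO in orange, bars spanning the 2 libraries, with genes ordered by the WT mean of that treatment. Cd14 leads in each panel, and Nod1 moves from rank 9 in control (4.49 in WT) to rank 3 with LPS+IFNγ (64.3).

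The order of the 6 groups also differed between genes. For Cd14 it ran from WT IL-4 (mean 45.6 CPM) through KO IL-4 (62.5), WT control (239.8) and KO control (305) to KO LPS+IFNγ (410.4) and WT LPS+IFNγ (457), with overlap between the last 2 only. Irak2 kept WT and KO overlapping within each treatment, at 34.4 and 38.2 with IL-4, 58.7 and 55.7 in control and 155 and 160.4 with LPS+IFNγ. For Irak4 no neighbours in the order were apart, from WT control (41.8) to WT LPS+IFNγ (51.1). The 10 genes summed to between 504 and 653 CPM in control, between 1510.4 and 1616 with LPS+IFNγ and between 289 and 310 with IL-4.

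For each gene the 3 genes with the most similar profile were found by the root mean square (RMS) difference of log2 CPM over the 12 libraries, each gene centred on its own mean. Nod1 lay nearest to Casp4, an inflammatory caspase that binds LPS (RMS difference 0.15, beside a standard deviation of 2.01 for Nod1 itself), then Fas, a death receptor, and Stx11. Nod2 lay nearest to Cd300e (0.26), Rapgef2 and Nfkbia, the inhibitor of NF-κB. Irak3 lay nearest to Il4ra, the IL-4 receptor chain (0.20), Ctsc and Sirpb1b. For Cd14 the nearest was Maf, a macrophage transcription factor (0.30), and Ampd3 was also among the nearest. Ly96 lay near Kdm5b (0.07), Rnf14 and Pef1, and Myd88 near Arhgdib (0.07), Bfar and Zc3hav1, an antiviral zinc finger protein. Irak2 lay near Vav1 (0.11), Slc11a1 and Por, Ticam1 near Med13l (0.13), Spata6 and Pdzd11, and Ticam2 near Dennd1a (0.17), Emb and Pik3cd. Irak4, whose own standard deviation was 0.15, lay near Qrich1 (0.05), Elk1 and Cox15. No gene of the 10 was among the nearest 3 of another.

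The genes around these were taken from 5 lists. With LPS+IFNγ in WT cells, 7 of 20 other TLR receptors and co-receptors tested rose and 2 fell (median 0.46). Of all 13525 genes tested, 27.4% were called higher and 3648 genes lower in WT, and 27.2% and 3527 in KO. Tlr3, the sensor of double-stranded RNA, rose by 3.03 ± 0.19 and Tlr9, the sensor of CpG DNA, by 2.12 ± 0.53. Tlr12, also among the 7, was called at 5.12 ± 1.09 from very low levels (0.0486 and 0 CPM to 1.29 and 0.881). It passed the low-count filter through its LPS+IFNγ libraries, so its call carries no support. The 2 that fell were Cd36 (−2.13 ± 0.20) and Scarb1 (−1.89 ± 0.13).

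Of 25 other adaptors and transducers tested 17 rose and 3 fell (median 0.68), beside 27.4% of all genes called higher. Irf7, the interferon amplifier, rose from 7.58 and 7.59 CPM to 3152 and 2779, Pik3ap1 (BCAP) by 2.13 ± 0.12 and the ubiquitin ligase Peli1 by 2.07 ± 0.16. Tirap, the bridge of TLR4 to MyD88, rose by 1.17 ± 0.24 and Traf6 by 0.79 ± 0.10, while Irf3, the target of the TRIF branch, did not pass (0.02 ± 0.25). Irak1, the other partner of IRAK4, fell from 139 and 134 CPM to 67.6 and 63.7 (−1.06 ± 0.10, adjusted p = 2.33e-05), opposite to Irak2. Peli2 (−1.85 ± 0.15) and Map3k7, which encodes TAK1 (−0.26 ± 0.10), fell as well. KO cells gave 16 higher and 3 lower, beside 27.2% of all genes called higher. In KO Irak1 was at −1.01 ± 0.10, Tirap at 1.16 ± 0.24 and Traf6 at 0.62 ± 0.10.

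Among other negative regulators 12 of 16 rose and 2 fell in WT (median 1.06), beside 27.4% of all genes called higher. Socs1 rose from 0.486 and 0.690 CPM to 45.2 and 79.5, Trim30a by 3.93 ± 0.34 and Nfkbia by 3.66 ± 0.24, and Il1rl1, the IL-33 receptor chain (−1.71 ± 0.47), and Otulin (−0.52 ± 0.13) fell. Of 17 NOD partners 8 rose and 2 fell (median 0.32), beside the same 27.4%. Ripk2, the kinase both NOD receptors use, rose from 9.14 and 8.08 CPM to 43.7 and 44.3 (2.35 ± 0.16, adjusted p = 3.28e-06), and by 2.05 ± 0.16 in KO. Nlrc5 (3.74 ± 0.22), the peptide transporter Slc15a3 (3.53 ± 0.17) and Birc3 (3.02 ± 0.29) rose most, while the lysosomal transporter Slc46a3 (−3.17 ± 0.36) and Carm1 (−0.98 ± 0.18) fell. Of the pathway outputs, many were near 0 in control and passed the low-count filter through their LPS+IFNγ libraries, so their count carries no support. The chemokine Cxcl10, for example, was at 0.389 and 0.148 CPM in WT control and at 2761 and 2598 with LPS+IFNγ, and Tnf at 10.5 and 10.4 and at 147 and 129. In KO the other lists gave 9 higher and 2 lower receptors, 11 and 1 negative regulators, and 7 and 2 NOD partners. The share of all genes called higher in KO was 27.2%.

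**Figure D5:**
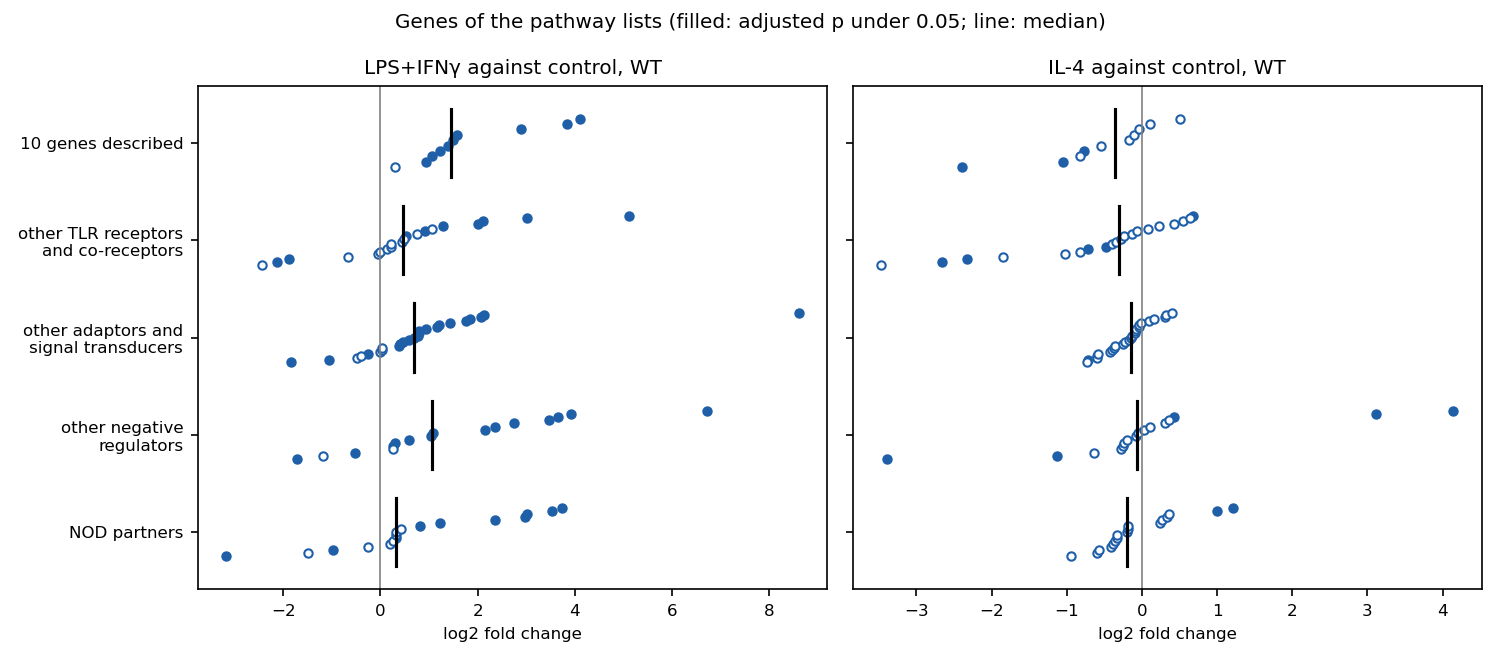
Log2 fold change of each tested gene of the 10 described and of 4 pathway lists, with LPS+IFNγ (left) and IL-4 (right) against control in WT cells, filled where the adjusted p was under 0.05 and a line at the median. With LPS+IFNγ the medians are 1.44 for the 10 genes, 0.46, 0.68, 1.06 and 0.32 for the lists, and with IL-4 they lie between −0.36 and −0.06. Total-count scaling moves the median of all genes to −0.55 on the left.

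With IL-4 the list with the most genes called lower was that of the receptors, where 4 of 20 fell in WT and 6 of 20 in KO, beside 4.12% and 3.34% of all genes called lower. Its median was −0.31 in WT and −0.56 in KO, beside −0.02 and 0.00 for all genes. In WT 1 receptor was called higher, the chaperone Hsp90b1 (0.68 ± 0.15). Among the 4 called lower, the largest falls were those of Tlr2, the lipoprotein receptor (−2.65 ± 0.42), Tlr9 (−2.33 ± 0.55) and Tlr13 (−0.72 ± 0.17). Tlr2 stood at 72.4 and 66.0 CPM in WT control and at 10.1 and 11.9 with IL-4, which set it beside Cd14 among the surface sensors that fell. Of the adaptors 2 fell, Peli2 (−0.72 ± 0.15) and Pik3ap1 (−0.60 ± 0.11). Among negative regulators Socs1 (4.14 ± 0.41), Il1rl1 (3.11 ± 0.39) and Usp4 (0.43 ± 0.09) rose, and Nfkbiz (−3.39 ± 0.50) and Nfkbia (−1.13 ± 0.23) fell. Of the NOD partners Ripk2 rose, from 9.14 and 8.08 CPM to 18.6 and 21.3 (1.21 ± 0.16, adjusted p = 0.0028), as did Slc15a3 (0.99 ± 0.16), and in KO Ripk2 rose by 0.61 ± 0.16 (0.0495). Ripk2 thus rose with both stimuli, whereas Nod1 and Nod2 rose only with LPS+IFNγ by these calls. Tlr4 (0.43 ± 0.23), Irak1 (−0.10 ± 0.10), Traf6 (−0.04 ± 0.10), Irf3 (−0.08 ± 0.24) and Tirap (−0.25 ± 0.24) did not pass in WT, nor did they in KO. KO cells gave 1 receptor higher, 0 adaptors higher and 1 lower, 3 and 2 negative regulators, and 2 and 1 NOD partners. Beside these list counts, 665 of all 13525 genes tested were called higher and 557 lower in WT, and 476 and 452 in KO. Many of the outputs were near 0 in control and IL-4 alike, so their count carries no support here either. By edgeR's test 0 of 14 passed in WT (2 at an unadjusted p under 0.05). In KO 3 were lower (9 at an unadjusted p under 0.05): Tnf (−1.73), Ccl4 (−1.26) and Ifit1. Ifit1 was at 14.7 and 1.75 CPM in the KO control libraries and at 0.547 and 0.237 with IL-4. KO control library 1 was also the higher in Ccl5 (10.7 and 0.682 CPM) and Isg15 (13.9 and 2.49).

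Between genotypes no gene of the 5 lists was called in any treatment, in the mean or in either interaction by edgeR's quasi-likelihood test. At an unadjusted p under 0.05 there were 12 of the 92 list genes in control, beside 7.48% of all genes, 5 with LPS+IFNγ, beside 8.27%, and 1 with IL-4, beside 3.35%. The 92 include the 14 outputs, many of them near 0 in control, which gave 3 of the 12 in control. In the mean there were 5, beside 11.3%, in the difference of the LPS+IFNγ response 3, beside 3.52%, and in that of the IL-4 response 5, beside 4.47%. With 2 libraries a group, no difference between KO and WT cells was detectable among these 92 genes after adjustment.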

How the data were processed

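Bone marrow derived macrophage RNA was measured in 12 libraries, 6 groups of 2, grouped by sample titles. Per the labels' protocols, libraries came from total RNA with a directional NEBNext Ultra II kit. The deposited table holds estimated counts for 55891 Ensembl identifiers, every value whole, with 0 columns left unassigned. The submitters' processing notes name Salmon 1.10.2, R 4.4.1, DESeq2 1.45.3, FastQC 0.11.9 and GRCm39, with no role given; the annotation and strand setting used were not given in the sources used here. Symbols matched 51425 identifiers, and positions come from GENCODE M21 (GRCm38), unconverted.

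Counts were used as deposited in edgeR 4.0.16 (R 4.3.3): filterByExpr left 13525 genes, sizes were TMM scaled, and all 12 libraries entered 1 quasi-likelihood fit, each group with its own coefficient (6 residual degrees of freedom, prior degrees of freedom 3.36, common dispersion 0.0382). F tests were two-sided for 10 contrasts, with Benjamini-Hochberg adjustment over all genes and a threshold of 0.05. The SE was derived from the F statistic. The scripts were tested on simulated data. All 10 genes were named throughout, with Tlr4, Tirap, Irak1, Irf3, Traf6 and Ripk2, and of each list at most the 3 largest called changes in each direction. Similar profiles were sought on log2 CPM (prior count 2). One gene with a similar profile is not reported here. In each group the counts of the 2 libraries differed beyond sampling noise, and each was counted as a sample. That difference cannot tell separate animals or cultures from repeat libraries of the same RNA, so independence of the 2 libraries is assumed. Alternatives were DESeq2 1.42.0 size factors and Wald test, no filter, own libraries only, replicate block and leaving out each library. Total counts as sizes was added after the data were seen. The genes and lists were chosen with earlier results of these data known.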

Additional observations from a re-analysis of the deposited data

How the results depend on the processing

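With LPS+IFNγ the number of the 10 genes called was 7 to 9 in WT and 7 to 9 in KO over every alternative run, and 8 to 9 and 7 to 9 when single libraries were left out. With IL-4 it was 3 to 4 in WT and 3 in KO over the other settings, except that on the 4 libraries compared alone it was 5 in WT and 0 in KO. Leaving out single libraries gave 1 to 2 in WT and 1 to 3 in KO with IL-4. No setting called a gene of the 10 between genotypes.

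Total-count scaling turned the LPS+IFNγ value of Irak4 to −0.21 in WT and −0.36 in KO, and of Cd14 to −0.064 in KO. The other reversals were of values near 0. In KO against WT, total counts gave −0.0142 for Irak2 with LPS+IFNγ, −0.00665 for Irak2 in the mean and 0.0438 for Ticam2 in the difference of the IL-4 response. With IL-4, Myd88 came to −0.000148 by DESeq2 size factors, −0.00159 by total counts and −0.000102 by the DESeq2 Wald test, and Irak3 to −0.00678, −0.00858 and −0.00624.

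Leaving out single libraries changed the sign of values that had not passed. For IL-4 in KO the values ran from −0.37 to 0.079 for Myd88, −0.29 to 0.42 for Ticam1, −0.68 to 0.24 for Ticam2, −0.27 to 0.11 for Irak4 and −0.77 to 0.30 for Nod1. For KO against WT in control they ran from −0.15 to 0.12 for Ly96, −0.10 to 0.34 for Myd88, −0.16 to 0.00865 for Irak2, −0.35 to 0.49 for Irak3, −6.95e-06 to 0.21 for Irak4, −0.99 to 0.069 for Nod1 and −0.31 to 0.024 for Nod2. With LPS+IFNγ they were −0.38 to 0.086 for Ticam2, −0.072 to 0.17 for Irak2, −0.15 to 0.039 for Irak4 and −0.24 to 0.11 for Nod2. With IL-4 they were −0.015 to 0.044 for Myd88, −0.55 to 0.17 for Ticam1, −0.088 to 0.10 for Irak3, −0.27 to 0.11 for Irak4, −0.43 to 0.084 for Nod1 and −0.43 to 0.45 for Nod2. In the mean they were −0.20 to 0.038 for Ticam1, −0.072 to 0.052 for Irak4 and −0.21 to 0.084 for Nod2. The difference of the LPS+IFNγ response ran from −0.22 to 0.046 for Ly96, −0.20 to 0.24 for Myd88, −0.090 to 0.67 for Ticam2, −0.17 to 0.90 for Nod1 and −0.093 to 0.26 for Nod2. That of the IL-4 response ran from −0.12 to 0.31 for Cd14, −0.33 to 0.12 for Myd88, −0.51 to 0.41 for Ticam2, −0.48 to 0.36 for Irak3, −0.37 to 0.00214 for Irak4, −0.22 to 0.84 for Nod1 and −0.29 to 0.60 for Nod2.

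Calls over all genes moved more. For IL-4 they were 1222 in WT, against 1909 by DESeq2, 3391 on the libraries compared alone and 175 to 293 with single libraries left out, and 928 in KO, against 1681, 14 and 310 to 1075. Without the low-count filter there were 1620 in KO. KO against WT had 10 in control, 8 with LPS+IFNγ, 9 with IL-4 and 23 in the mean, against 71, 34, 19 and 97 by DESeq2 and 107, 81, 33 and 312 without the filter. On the libraries compared alone control had 4 and IL-4 5, and leaving out single libraries gave 8 to 47, 7 to 534, 8 to 20 and 15 to 145. The interactions had 0 by edgeR, 6 and 6 by DESeq2 and 8 and 23 without the filter, and up to 33 and 11 with a library left out. Whether library numbers pair the samples is unknown: 14 of 15 pairs of groups correlated above 0.1 (the lowest, WT with KO in IL-4, at 0.0464), among them 6 of 6 pairs within a genotype (the lowest at 0.195). A replicate block left the members called at 9, 8, 3 and 3 for the stimuli and 0 between genotypes, and moved calls over all genes to 27, 21, 36 and 173 between genotypes. A block within genotype also left the members called at 9, 8, 3 and 3 for the stimuli, and gave 2064 calls over all genes for IL-4 in WT and 1577 in KO. The cause of these changes was not tested. Both depth and the 2 libraries a group limit precision, and an arm left with 1 library is assumed to vary like the others.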
